A study of Mus musculus with 14 samples.

Results

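Histone acetyltransferases (HATs) are the enzymes that write lysine acetylation, the mark that histone deacetylases such as HDAC1 and HDAC2 remove. The mRNAs of 10 HAT genes were followed here in activated mouse CD4+ T cells that had lost deacetylase alleles, among 43943 genes with a value in every sample of the first experiment and 33470 in every sample of the second. The members were taken by gene name and were Ep300 and Crebbp (the p300/CBP pair), Kat2a and Kat2b (the GNAT acetyltransferases GCN5 and PCAF), Kat5, Kat6a, Kat6b, Kat7, and Kat8 (the MYST family), and Hat1 (a type B enzyme). The question was whether acetyltransferase mRNA changes when deacetylases are lost, with mutant and WT cells compared inside each experiment.

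The study used C57BL/6 mice in which Cd4-Cre deletes loxP-flanked alleles in the T cell lineage, and the WT samples are labelled wild type without further detail. In the first experiment 4 WT samples were set against 4 HDAC1cKO-HDAC2HET samples (HDAC1f/f HDAC2f/+ with Cd4-Cre), which had lost 2 Hdac1 alleles and 1 Hdac2 allele. Naive CD4+ T cells were sorted, activated for 3 days with anti-CD3 and anti-CD28 and given IL-2, and viable cells were sorted again before RNA-Seq. In the second experiment 3 WT samples were set against 3 HDAC1cKO samples (HDAC1f/f with Cd4-Cre), which had lost 2 Hdac1 alleles and kept both Hdac2 alleles, and these cells were activated likewise for 3 days and then stimulated again for 12 hours through anti-CD3. Deletion begins in the thymus, so the cells had matured and been activated without the deleted alleles. The study describes the first experiment's samples as independent cell batches prepared on 1 day. The labels do not tie the samples of the second experiment to single mice, and its p-values measure the spread between these samples, which in WT includes a difference in sex (below).

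As background, acetylation of histone tails loosens chromatin and creates binding sites for bromodomain proteins. p300 and CBP acetylate histone H3 at enhancers and serve as coactivators for many transcription factors in T cells. GCN5 and PCAF work in the SAGA and ATAC complexes at promoters. The MYST enzymes each sit in their own complexes, with TIP60 (Kat5) acting on H4 and H2A in DNA repair and transcription, MOZ and MORF (Kat6a and Kat6b) and HBO1 (Kat7) on H3 and H4 with BRPF and JADE scaffolds, and MOF (Kat8) on H4 lysine 16. HAT1 acetylates newly made histone H4 before it is placed on DNA.

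Expression was given as FPKM, mapped fragments scaled to transcript length and library size, which compares levels between genes per length. Fragment numbers estimated from the low FPKM values of each library ran from 25500000 to 60100000. A fold change is given on the log2(FPKM + 0.1) scale as mutant minus WT with its standard error (SE), and a gene was called when the Benjamini-Hochberg adjusted p of the limma test over all genes of that experiment was at most 0.05. The deletion was visible in both experiments. Hdac1 mRNA was 76.3 to 79.6 FPKM in the WT and 6.65 to 10.7 FPKM in the HDAC1cKO-HDAC2HET samples, and 72.3 to 81.1 against 8.52 to 12.1 FPKM in the HDAC1cKO experiment. Hdac2 mRNA was 58.2 to 60.3 FPKM in WT and 34.0 to 37.0 FPKM in HDAC1cKO-HDAC2HET samples, while in the second experiment it was 62.4 to 78.2 FPKM in WT and 74.8 to 88.1 FPKM in HDAC1cKO samples. T cell markers were present throughout, with a sum over 7 genes of 1112 FPKM or more in every sample.

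Libraries differed in ways other than genotype in the second experiment. Xist, transcribed from the inactive X chromosome of females, was 42.9 and 33.2 FPKM in WT replicates 1 and 3 and at most 0.0435 FPKM in WT replicate 2 and the 3 HDAC1cKO samples, so sex and genotype were partly confounded there. WT replicate 3 held Y-linked mRNA beside Xist, with Eif2s3y at 5.56 FPKM against 34.1 to 43.1 FPKM in the HDAC1cKO samples. WT replicate 1 and HDAC1cKO replicate 2 were the highest and the lowest library for several long mRNAs, as given below with each result. In the first experiment all 8 samples had Xist, at 58.9 to 65.2 FPKM in WT and 26.0 to 33.7 FPKM in HDAC1cKO-HDAC2HET cells.

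HAT mRNA levels spanned a wide range in WT cells of the first experiment. Hat1 was the most abundant, at 117 ± 2.42 FPKM (SD, n = 4). Kat7 (31.0 ± 0.744 FPKM), Kat2a (28.3 ± 1.21 FPKM), and Kat5 (25.5 ± 0.334 FPKM) followed, and their sample ranges did not overlap each other. Kat6a (16.2 ± 0.184 FPKM), Ep300 (16.0 ± 0.488 FPKM), and Kat8 (14.2 ± 0.943 FPKM) came next, and neighbours in this order did not differ beyond their spread. Kat2b (10.1 ± 0.801 FPKM), Crebbp (8.38 ± 0.222 FPKM), and Kat6b (3.72 ± 0.0757 FPKM) were the lowest. The order in WT cells of the second experiment was alike at both ends, with Hat1 at 101 ± 7.08 FPKM (SD, n = 3) and Kat6b at 3.41 ± 0.0464 FPKM, but Kat7, Kat5, and Kat2a overlapped there.

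**Figure D1:**
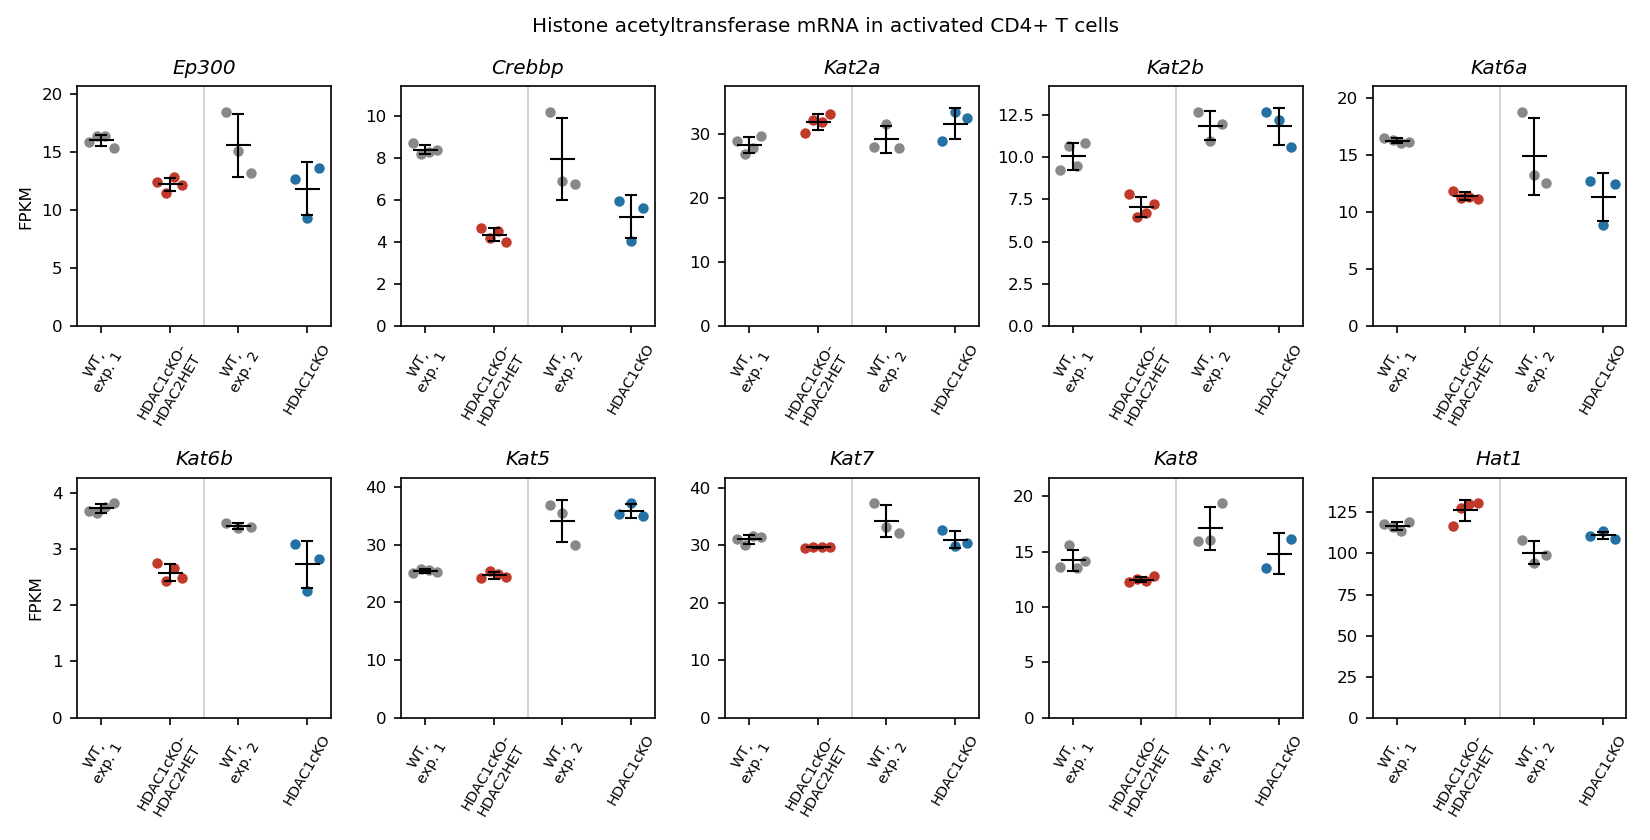
FPKM of the 10 acetyltransferase genes in each sample (points) with the group mean and SD (black), for WT and HDAC1cKO-HDAC2HET cells of the first experiment (left of the grey line, 4 samples each) and WT and HDAC1cKO cells of the second (right, 3 samples each, with 2 HDAC1cKO values for Kat8). All axes start at 0, and Crebbp lies at 8.18 to 8.70 FPKM in WT and 4.00 to 4.68 FPKM in HDAC1cKO-HDAC2HET cells.

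Most acetyltransferase mRNAs were lower in HDAC1cKO-HDAC2HET than in WT cells. In these cells 6 of 10 members were called lower (Crebbp, Kat6a, Kat6b, Kat2b, Ep300, and Kat8), beside 27.6% of the 15137 genes tested. The single member called higher was Kat2a, beside 24.2% of all genes. None of the 10 passed a fold change of 2 together with the adjusted p, beside 5.58% of all genes called lower and 5.59% called higher at that limit. The median log2 fold change of the 10 members was -0.29, beside -0.05 over all genes tested. WT and mutant samples did not overlap for 7 members that were lower (these 6 and Kat7), beside 26.9% of all genes, and for 1 that was higher, beside 23.4%. At an unadjusted p under 0.05, 7 members were lower, beside 30.4% of all genes, and 2 (Kat2a and Hat1) were higher, beside 26.1%. In all 7837 of the 15137 genes were called, and the members were not tested as a set. In a bulk sample, fewer cells of a type and less RNA per cell cannot be told apart.

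Crebbp and Ep300 encode the p300/CBP pair, and Crebbp showed the largest decrease of the 10 in this experiment. Both promoters are rich in CpG dinucleotides. They are shown here with those of Kat2b and Kat2a, because the first pair fell together and the second pair moved apart. The 4 sequences are RefSeq promoters of build GRCm38.p6, from 250 bases before to 50 bases after the annotated start, on the strand of the gene and with each CpG in capitals. They lie at chr16:4213355-4213654 (Crebbp, minus strand), chr15:81585964-81586263 (Ep300, plus strand), chr17:53566721-53567020 (the first of 2 annotated starts of Kat2b, plus strand), and chr11:100712418-100712717 (Kat2a, minus strand).
Crebbp: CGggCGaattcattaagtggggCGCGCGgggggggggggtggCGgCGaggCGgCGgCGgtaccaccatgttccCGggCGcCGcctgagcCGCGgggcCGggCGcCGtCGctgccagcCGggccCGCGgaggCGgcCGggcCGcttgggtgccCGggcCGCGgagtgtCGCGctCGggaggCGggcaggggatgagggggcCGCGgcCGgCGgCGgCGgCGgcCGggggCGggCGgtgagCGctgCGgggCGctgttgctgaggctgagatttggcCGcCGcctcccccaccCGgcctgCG
Ep300: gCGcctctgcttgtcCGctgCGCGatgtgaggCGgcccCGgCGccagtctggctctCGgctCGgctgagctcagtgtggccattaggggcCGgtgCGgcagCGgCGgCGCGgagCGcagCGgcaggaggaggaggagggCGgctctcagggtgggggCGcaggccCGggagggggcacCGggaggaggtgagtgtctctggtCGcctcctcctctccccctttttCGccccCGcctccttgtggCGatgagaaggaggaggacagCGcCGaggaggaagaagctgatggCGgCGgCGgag
Kat2b: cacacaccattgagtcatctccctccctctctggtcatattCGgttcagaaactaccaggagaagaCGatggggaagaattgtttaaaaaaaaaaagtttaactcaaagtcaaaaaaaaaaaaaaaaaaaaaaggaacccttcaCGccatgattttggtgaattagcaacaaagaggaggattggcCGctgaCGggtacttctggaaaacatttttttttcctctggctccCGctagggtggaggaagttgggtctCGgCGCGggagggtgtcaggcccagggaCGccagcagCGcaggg
Kat2a: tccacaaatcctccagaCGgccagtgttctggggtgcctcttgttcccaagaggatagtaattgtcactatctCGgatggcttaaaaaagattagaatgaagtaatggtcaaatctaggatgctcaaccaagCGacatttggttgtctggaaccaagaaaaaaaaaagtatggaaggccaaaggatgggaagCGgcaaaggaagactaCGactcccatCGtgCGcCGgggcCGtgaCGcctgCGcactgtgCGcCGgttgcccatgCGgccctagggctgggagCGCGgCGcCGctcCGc

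The Crebbp window held 49 CpGs, more than 99.0% of the 32851 promoters in the table, whose median was 7. Ep300 held 30 CpGs, Kat2a 19, and Kat2b 11. Among the members not shown, Hat1 held 32, Kat6b 32 and 34 at its 2 starts, and Kat5 19 and 29. Kat7 held 14, and Kat8 held 12 and 5. Of the 10 members, 9 had an entry, and Kat6a had none. The GC box (GGGCGG on either strand, which itself holds a CpG) occurred 2 times in Crebbp and 1 time in Ep300 and was not in the Kat2a and Kat2b windows, while 35.7% of all promoters held it. Outside these windows it occurred 8 times in each Kat6b window and 3 times in 1 Kat5 window. It occurred 1 time in Hat1 and in each Kat8 window, and was not in Kat7. The ETS core (CCGGAA, either strand) was in none of the 4 windows shown, against 14.9% of all promoters. Of these 4, the CCAAT box (CCAAT, either strand) was in the Kat2b window alone, against 37.4% of all promoters. None of these motifs contains another. The presence of these letters describes the windows and says nothing about binding in these cells.

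Crebbp (CBP), at chr16:4081328-4213997 in GRCm38, was 8.70, 8.18, 8.29, and 8.34 FPKM in WT replicates 1 to 4 and 4.68, 4.21, 4.50, and 4.00 FPKM in HDAC1cKO-HDAC2HET replicates 1 to 4. All mutant samples lay far below all WT samples, and no group held a library apart from the others. The log2 fold change was -0.93 (SE 0.057, adjusted p = 9.74e-06), a fall of the mean to 0.519 of WT. Ep300 (p300), at chr15:81585351-81652077, was 15.9, 16.4, 16.3, and 15.3 FPKM in WT and 12.4, 11.5, 12.8, and 12.1 FPKM in HDAC1cKO-HDAC2HET cells. Its groups did not overlap either, but the step was smaller. Ep300 fell by 0.39 on the log2 scale (SE 0.042, adjusted p = 0.000156). The sum of both, the p300/CBP mRNA of a cell population, was 24.4 ± 0.457 FPKM in WT and 16.6 ± 0.769 FPKM in HDAC1cKO-HDAC2HET cells (SD, n = 4).

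Because Crebbp fell more than its paralog, the balance of the pair moved. The ratio of Ep300 to Crebbp within a sample, which does not depend on library scaling, was 1.83, 2.00, 1.97, and 1.84 in WT and 2.65, 2.73, 2.85, and 3.03 in HDAC1cKO-HDAC2HET cells. Each mutant sample lay above each WT sample. The log2 ratio was higher by 0.56 (2-sided exact permutation test, p = 0.0286, the smallest that 4 against 4 samples can give, and adjusted p = 0.0429 over the 3 ratios examined).

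Kat2a (GCN5) and Kat2b (PCAF) are alternative catalytic subunits of the same complexes, and they changed in opposite directions. Kat2a, at chr11:100704746-100712465, was 28.9, 26.8, 27.9, and 29.6 FPKM in WT and 30.2, 32.2, 31.8, and 33.2 FPKM in HDAC1cKO-HDAC2HET cells. The groups did not overlap, but HDAC1cKO-HDAC2HET replicate 1 was close to WT replicate 4. Kat2a rose by 0.17 on the log2 scale (SE 0.042, adjusted p = 0.0105). Kat2b, at chr17:53566861-53672720, was 9.24, 10.7, 9.50, and 10.8 FPKM in WT and 7.80, 6.46, 6.69, and 7.24 FPKM in HDAC1cKO-HDAC2HET cells. Every mutant sample was below every WT sample, with a spread in WT that was wider, relative to its mean, than for the other members that fell. Kat2b fell by 0.51 (SE 0.079, adjusted p = 0.000991). The ratio of Kat2a to Kat2b was 2.83 ± 0.261 in WT and 4.55 ± 0.481 in HDAC1cKO-HDAC2HET cells (SD, n = 4), and its log2 value was higher by 0.69 (2-sided exact permutation test, p = 0.0286, adjusted p = 0.0429). The sum of both was 38.4 ± 1.43 FPKM and 38.9 ± 1.06 FPKM, a difference within the spread between replicates.

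**Figure D2:**
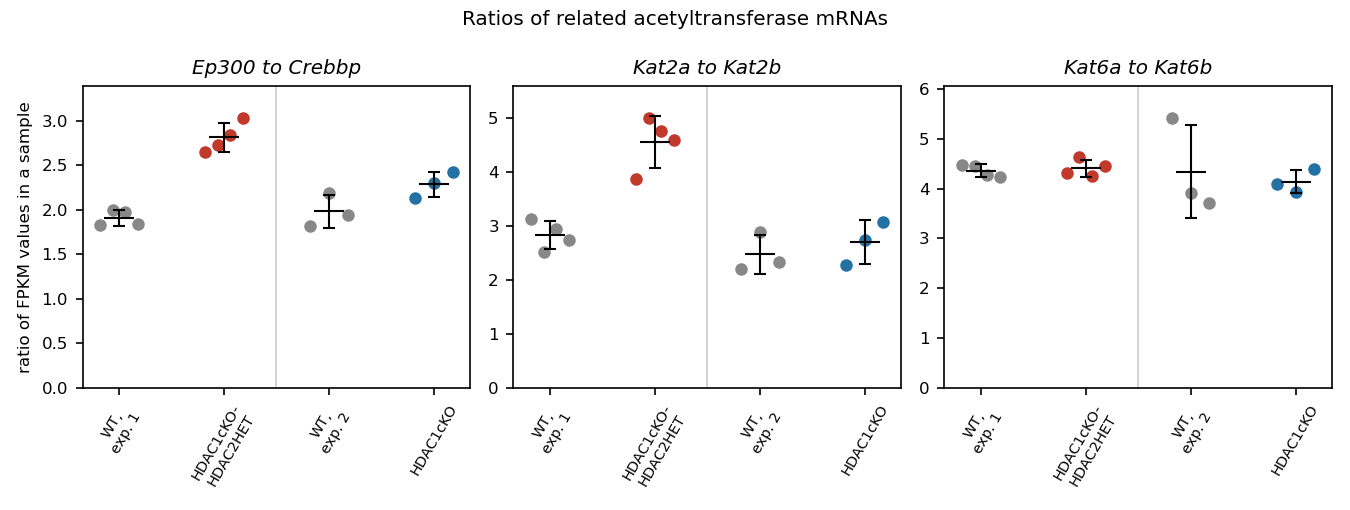
Ratio of the FPKM values of 3 related gene pairs within each sample (points) with the group mean and SD (black), for the 4 groups, on axes that start at 0. The Ep300 to Crebbp and Kat2a to Kat2b ratios of all 4 HDAC1cKO-HDAC2HET samples lie above those of their WT samples, and the Kat6a to Kat6b ratios overlap.

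The MOZ and MORF genes fell together. Kat6a, at chr8:22859535-22943259, was 16.5, 16.3, 16.1, and 16.1 FPKM in WT and 11.9, 11.3, 11.3, and 11.1 FPKM in HDAC1cKO-HDAC2HET cells. These were tight groups with a wide gap between them. Kat6a fell by 0.51 (SE 0.031, adjusted p = 9.56e-06). Kat6b, at chr14:21481434-21672478, was 3.68, 3.65, 3.75, and 3.82 FPKM in WT and 2.75, 2.43, 2.66, and 2.49 FPKM in HDAC1cKO-HDAC2HET cells, again without overlap. Its log2 fold change was -0.51 (SE 0.058, adjusted p = 0.000183). The ratio of Kat6a to Kat6b was 4.36 ± 0.127 in WT and 4.42 ± 0.171 in HDAC1cKO-HDAC2HET cells (SD, n = 4), and the log2 difference of 0.02 was within the spread (2-sided exact permutation test, p = 0.629).

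The other MYST enzymes moved little. Kat8 (MOF), at chr7:127912516-127925837, was 13.6, 15.6, 13.5, and 14.2 FPKM in WT and 12.2, 12.5, 12.4, and 12.8 FPKM in HDAC1cKO-HDAC2HET cells. The groups did not overlap, and WT replicate 2 was the highest. Kat8 fell by 0.19 (SE 0.049, adjusted p = 0.0135), and its locus overlaps Prss8. Whether reads of Prss8 entered the Kat8 value was not tested. Kat7 (HBO1), at chr11:95274259-95310246, was 31.1, 29.9, 31.6, and 31.3 FPKM in WT and 29.5, 29.6, 29.6, and 29.7 FPKM in HDAC1cKO-HDAC2HET cells. All mutant values were just below the WT values, but the log2 fold change of -0.07 (SE 0.025) did not pass the adjustment (adjusted p = 0.0605). Without WT replicate 2 it was -0.08 and passed (adjusted p = 0.0243). Kat5 (TIP60), at chr19:5603014-5610237 and overlapping Rnaseh2c, was 25.04 to 25.77 FPKM in WT and 24.1 to 25.5 FPKM in HDAC1cKO-HDAC2HET cells. These ranges overlapped, and the log2 fold change was -0.04 (95% interval -0.10 to 0.02, adjusted p = 0.248).

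Hat1, at chr2:71388958-71441622, was 118, 116, 114, and 119 FPKM in WT and 117, 128, 130, and 131 FPKM in HDAC1cKO-HDAC2HET cells. HDAC1cKO-HDAC2HET replicate 1 lay within the WT range, and the other mutant samples lay above it. The log2 fold change was 0.11 (SE 0.041) with an adjusted p of 0.0545, and without HDAC1cKO-HDAC2HET replicate 1 it was 0.15 with an adjusted p of 0.00273. Because Hat1 made up 45.6 ± 0.441% of the summed FPKM of 9 members (all but Kat8, which had no value in 1 sample of the second experiment) in WT and 50.5 ± 1.26% in HDAC1cKO-HDAC2HET cells, that sum (256 ± 3.27 and 250.1 ± 6.99 FPKM) overlapped between the groups. Without Hat1 the sum was 139 ± 1.25 FPKM in WT and 124 ± 0.610 FPKM in HDAC1cKO-HDAC2HET cells (SD, n = 4).

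Over the same samples the deacetylase mRNA that the design removed was larger than the acetyltransferase mRNA that was lower. Hdac1 and Hdac2 together were 137 ± 1.90 FPKM in WT and 43.7 ± 2.24 FPKM in HDAC1cKO-HDAC2HET cells (SD, n = 4). In the second experiment they were 148 ± 12.4 FPKM in WT and 90.5 ± 8.51 FPKM in HDAC1cKO cells (SD, n = 3).

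**Figure D3:**
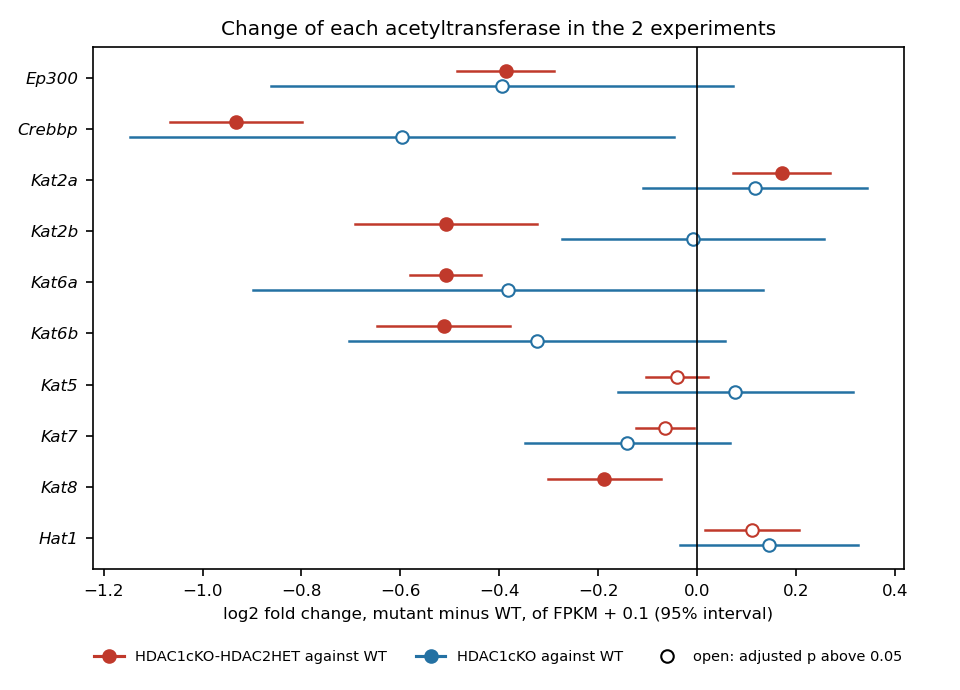
Log2 fold change of each acetyltransferase, mutant minus WT on the log2(FPKM + 0.1) scale, with its 95% interval from the limma fit, for the first (red) and second (blue) experiment, where a filled point has an adjusted p of at most 0.05. The intervals of the second experiment are wider, Kat8 has no value there, and Kat2b differs most between the experiments (-0.51 and -0.01).

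Loss of Hdac1 alone gave no called change of an acetyltransferase. Of 9 members tested none was called higher or lower, beside 0.0285% of the 14026 genes tested called higher and 0.0642% called lower by limma, and 1 (Crebbp) had an unadjusted p under 0.05 and was lower, beside 7.69% of all genes lower and 6.54% higher at that limit. None passed a fold change of 2 with the adjusted p, beside 0.0143% of all genes called higher and 0.0642% called lower. The groups did not overlap for Crebbp and Kat6b, which were lower, and for Hat1, which was higher, beside 12.3% of all genes lower and 9.93% higher without overlap. With 3 against 3 samples the exact permutation test cannot go below p = 0.10. The median log2 fold change of the 9 members was -0.14, beside -0.03 over all genes.

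Crebbp was 10.2, 6.90, and 6.76 FPKM in WT and 5.93, 4.04, and 5.61 FPKM in HDAC1cKO replicates 1 to 3. Its groups did not overlap, WT replicate 1 stood well above the other WT samples, and HDAC1cKO replicate 2 was the lowest. The log2 fold change was -0.60 (SE 0.22, 95% interval -1.15 to -0.05, adjusted p = 0.326), and it was -0.41 without WT replicate 1 and -0.43 without HDAC1cKO replicate 2. When both experiments were fitted together, and so shared 1 estimate of the spread, the same fold change had an adjusted p of 0.0373. Part of the 3' end of Crebbp was assembled as separate short loci in every sample of the second experiment except WT replicate 1, and these loci are not in the values above.

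Ep300 was 18.5, 15.1, and 13.2 FPKM in WT and 12.7, 9.29, and 13.6 FPKM in HDAC1cKO cells, with HDAC1cKO replicate 3 above WT replicate 3. Its log2 fold change was -0.39 (SE 0.19, adjusted p = 0.404), and -0.27 without WT replicate 1. Kat6a was 18.8, 13.2, and 12.6 FPKM in WT and 12.7, 8.88, and 12.4 FPKM in HDAC1cKO cells, so the groups touched. Its log2 fold change was -0.38 (SE 0.21, adjusted p = 0.459), and -0.20 without WT replicate 1. For Ep300, Crebbp, and Kat6a alike, WT replicate 1 was the highest and HDAC1cKO replicate 2 the lowest of the 6 libraries. Kat6b was 3.47, 3.38, and 3.39 FPKM in WT and 3.09, 2.26, and 2.83 FPKM in HDAC1cKO cells. It had an even WT group, and all 3 mutant samples were lower, with a log2 fold change of -0.32 (SE 0.16, adjusted p = 0.400).

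Kat2b was 12.7, 10.96, and 11.98 FPKM in WT and 12.7, 12.2, and 10.6 FPKM in HDAC1cKO cells, and these groups covered the same range. Its log2 fold change was -0.01 (95% interval -0.27 to 0.26), and the sign turned with the sample scaling. Kat2a was 28.0, 31.6, and 27.8 FPKM in WT and 28.8, 33.5, and 32.5 FPKM in HDAC1cKO cells, also with overlap. Its log2 fold change was 0.12 (95% interval -0.11 to 0.34). Hat1 was 108, 94.3, and 99.1 FPKM in WT and 111, 113, and 109 FPKM in HDAC1cKO cells, just without overlap, and its log2 fold change was 0.15 (SE 0.074, adjusted p = 0.426). Kat5 ranged from 29.9 to 36.9 FPKM in WT and from 35.0 to 37.2 FPKM in HDAC1cKO cells, and Kat7 from 32.1 to 37.3 and from 29.8 to 32.7 FPKM, both with overlap. Kat8 was 15.9, 16.1, and 19.4 FPKM in WT and 13.5 and 16.1 FPKM in HDAC1cKO replicates 1 and 2. In HDAC1cKO replicate 3 it was found only within an assembled locus (chr7:127904082-127925832) that also covers Bckdk, so it was not tested.

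The paralog ratios of the second experiment overlapped between the groups. Ep300 to Crebbp was 1.98 ± 0.188 in WT and 2.29 ± 0.144 in HDAC1cKO cells (SD, n = 3, 2-sided exact permutation test, p = 0.20). Kat2a to Kat2b was 2.47 ± 0.363 and 2.70 ± 0.402 (exact permutation p = 0.60), and Kat6a to Kat6b was 4.35 ± 0.934 and 4.14 ± 0.232 (exact permutation p = 1.00).

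Whether a change differed between the experiments was tested as a contrast over all 14 samples. The difference was called for 1 of 9 members, Kat2b, beside 15.7% of 12367 genes tested, and Kat2b was also the 1 member with an unadjusted p under 0.05, beside 29.4%. Kat2b changed by -0.51 in HDAC1cKO-HDAC2HET and by -0.01 in HDAC1cKO cells, a difference of -0.50 (SE 0.13, adjusted p = 0.0225). Without HDAC1cKO replicate 1 the difference was -0.45 and did not pass (adjusted p = 0.0566). For Crebbp the difference was -0.33 (95% interval -0.80 to 0.13, adjusted p = 0.328), for Kat6a it was -0.13 (95% interval -0.55 to 0.30), for Kat6b it was -0.19 (95% interval -0.49 to 0.11), and for Ep300 it was 0.01 (95% interval -0.38 to 0.40). The experiments also differed in the restimulation, in the sex of the samples, and in the assembled loci, and these cannot be told apart from the Hdac2 allele. Named loci numbered 36704 to 38572 per sample in the first experiment and 24363 to 25130 in the second. The Kat6b locus began at 21499770 in the first and at 21481434 in the second.

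The members with the largest decreases, Kat2b aside, have long mRNAs, and mRNA length moved with the fold change over all genes. By the longest annotated coding transcript Crebbp has 10.8 kb, Ep300 9.57 kb, Kat6a 9.11 kb, and Kat6b 7.70 kb, whereas Kat2b has 4.65 kb and Kat2a 3.05 kb. In HDAC1cKO-HDAC2HET cells the median log2 fold change was 0.09 for 1684 protein-coding genes of up to 1.5 kb and -0.18 for 905 of more than 7 kb, of which 46.2% were called lower and 17.8% higher. Within that longest class Crebbp (-0.93) lay below the 10th percentile of -0.79. Kat6a and Kat6b (both -0.51) lay just below the 25th percentile of -0.47, and Ep300 (-0.39) lay above it. Kat2b (-0.51) lay below the 25th percentile of -0.42 among the 2363 genes of 3.5 to 5 kb.

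When the length trend of each sample was removed, an alternative chosen after the data had been seen, the same 6 members were called lower. All of them but Kat8, which stayed at -0.19, were lower by less. Crebbp was then at -0.73, Kat2b at -0.41, Kat6b at -0.36, Kat6a at -0.33, Ep300 at -0.20, and Kat8 at -0.19, and Kat2a was at 0.22. Ep300 and Kat6a moved by over 1.5 times, and Kat7 went from -0.07 to -0.00098. In the second experiment the median was -0.15 for 926 genes of more than 7 kb. By library, the median deviation of these genes from the WT mean was 0.11 in WT replicate 1 and -0.31 in HDAC1cKO replicate 2, and between -0.10 and -0.04 in the other 4, the same libraries that stood apart for Ep300, Crebbp, and Kat6a. The part of transcript length in these results was not tested further.

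**Figure D4:**
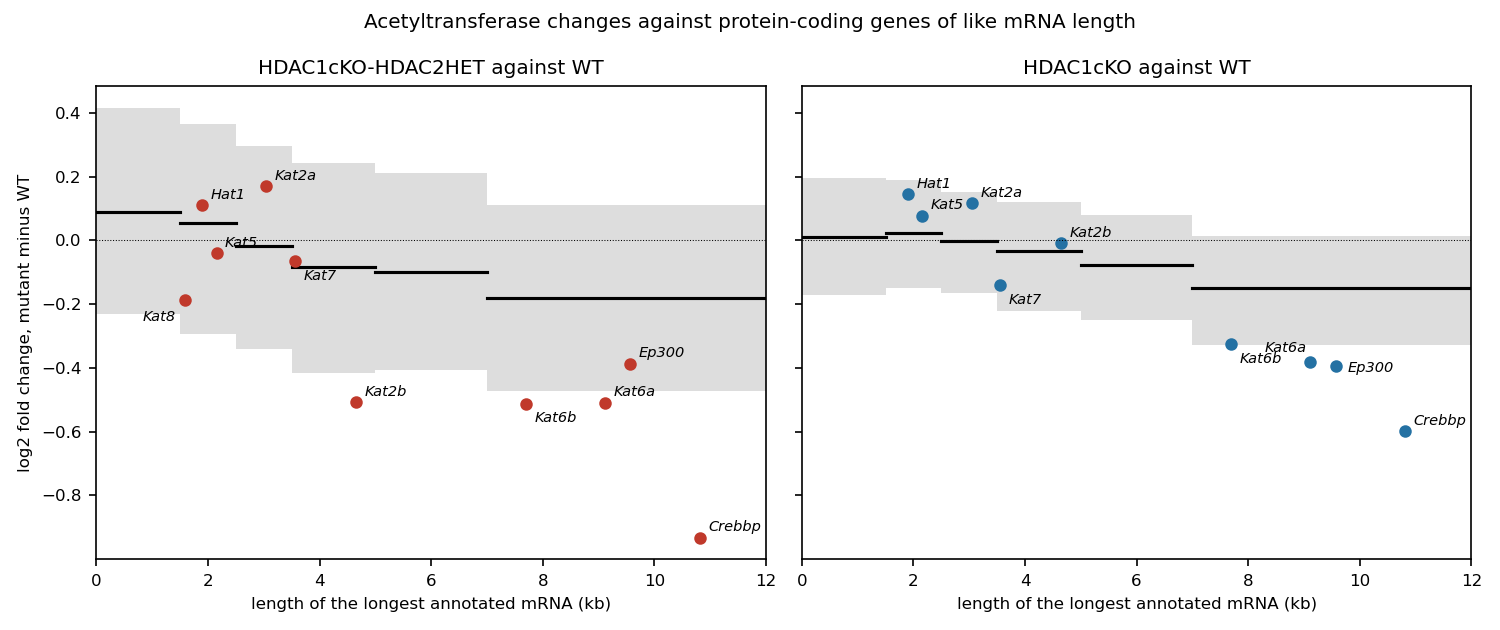
Log2 fold change (mutant minus WT) of each acetyltransferase against the length of its longest annotated mRNA in kb, over the median (black line) and the 25th to 75th percentile (grey) of protein-coding genes in 6 length classes, for the first (left) and second (right) experiment; the last class holds all genes over 7 kb. Medians fall from 0.09 to -0.18 on the left and from 0.01 to -0.15 on the right, and Crebbp lies at -0.93 and -0.60.

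Markers of other cells and of the T cell state also moved in the first experiment. The CD8 genes Cd8a and Cd8b1 were both called higher in HDAC1cKO-HDAC2HET cells, with a summed level of 3.28 to 5.96 FPKM in WT and 11.7 to 15.2 FPKM in the mutant. All 7 T cell markers were called lower, with a summed level of 1456 to 1589 FPKM in WT and 1112 to 1182 FPKM in HDAC1cKO-HDAC2HET cells. Cd3d, a chain of the T cell receptor complex, fell by 0.65 and Cd28, the costimulatory receptor, by 0.62. Of 6 B cell markers 2 could be tested and 1, Cd79b, rose from 0.293 ± 0.0713 to 2.76 ± 0.473 FPKM (SD, n = 4), and the list's sum was 0.520 to 0.960 FPKM in WT and 2.83 to 4.49 FPKM in the mutant. Of 6 myeloid markers the 1 tested (Itgam) was not called, and Cd68 had a value in 3 of 4 WT samples at 2.80 ± 0.447 FPKM and in all mutant samples at 2.96 ± 1.26 FPKM. NK and erythroid markers summed to at most 0.506 FPKM in any sample. The summed myeloid level was 0.135 to 0.310 FPKM in WT and 2.07 to 4.59 FPKM in the mutant, where Cd68 entered the mutant sum alone because 1 WT sample had no value for it, and Lyz2 and Cd14 were at 0 in all WT samples. The cells of the first experiment were sorted as naive CD4+ T cells after depletion with antibodies against markers that included CD8α, B220, NK1.1, and CD11b. None of the 4 CD8 and B cell genes tested was called in the second experiment, where the CD8 sum was 3.80 to 4.86 FPKM in WT and 6.52 to 7.30 FPKM in HDAC1cKO cells. The part of these markers in the acetyltransferase results was not tested.

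Genes of the same pathway were counted from 8 lists. In HDAC1cKO-HDAC2HET cells 47 of the 80 listed pathway genes that could be tested were called lower, 17 higher, and 16 were not called, beside 27.6% of all genes called lower and 24.2% called higher. The higher calls were thus no more frequent than over all genes, and the same shares stand beside each list below, several of which lie near them. Of 80 tested in HDAC1cKO cells limma called none, and at an unadjusted p under 0.05 12 were lower and 1 higher, beside 7.69% and 6.54% of all genes. So few genes of any kind were called in that experiment (0.0642% lower and 0.0285% higher) that a count of 0 is near the background.

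Other proteins with acetyltransferase activity were called in each of 11 cases, 9 lower and 2 higher, with a median log2 fold change of -0.31. Clock, the circadian regulator, was 2.26 ± 0.104 FPKM in WT and 1.122 ± 0.0566 FPKM in HDAC1cKO-HDAC2HET cells (SD, n = 4) and fell by 0.95 (SE 0.071, adjusted p = 2.40e-05). Ncoa2, a nuclear receptor coactivator, was 21.4 ± 2.19 FPKM in WT and 13.9 ± 0.677 FPKM in the mutant and fell by 0.61 (SE 0.075). The 2 that rose were Ncoa1, another nuclear receptor coactivator, by 0.40 and Gtf3c4, a subunit of the transcription factor TFIIIC, by 0.11 on the log2 scale, and both were named after their values had been seen.

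Partners of GCN5 and PCAF in SAGA and ATAC were called lower in 13 of 18 cases and higher in 1, with a median of -0.28. Supt20, a SAGA core subunit, was 44.3 ± 6.98 FPKM in WT and 19.6 ± 3.12 FPKM in HDAC1cKO-HDAC2HET cells and fell by 1.17 (SE 0.15, adjusted p = 0.000404), the 1 gene of this list past a fold change of 2. Tada1, an adaptor subunit of SAGA, fell by 0.75 (SE 0.041). Partners of TIP60 were called lower in 9 of 17 cases and higher in 2 (median -0.19). Ing3, a histone reader, fell by 0.89 (SE 0.064), and Epc1, the scaffold of the complex, fell by 0.82 (SE 0.061).

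The scaffolds and readers of the MOZ, MORF, and HBO1 complexes were split, with 3 of 7 lower and 3 higher (median -0.13). Brpf3 was 8.38 ± 1.45 FPKM in WT and 4.39 ± 0.266 FPKM in HDAC1cKO-HDAC2HET cells and fell by 0.90 (SE 0.12), and Jade3 rose by 0.35 (SE 0.052). Of the partners of MOF in the MSL and NSL complexes 7 of 11 were lower and 2 higher (median -0.34). Ogt, the O-GlcNAc transferase, fell by 0.72 (SE 0.065), and Kansl1, the NSL scaffold, fell by 0.60 (SE 0.032).

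Partners of HAT1 and chaperones of histones H3 and H4 were called lower in 3 of 8 cases and higher in 3 (median -0.01), near the shares over all genes. Chaf1b, a subunit of chromatin assembly factor 1, was 30.5 ± 1.122 FPKM in WT and 44.7 ± 1.17 FPKM in the mutant and rose by 0.55 (SE 0.035), and Ipo4, the importin that carries H3 and H4, rose by 0.40 (SE 0.062). The S phase and mitosis genes, listed because HAT1 serves DNA replication, were called lower in 4 of 15 cases and higher in 4 (median 0.02), also near those shares, with Ccnb1, cyclin B1, up by 0.57 and Mcm2, a subunit of the replicative helicase, up by 0.37.

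All 3 BET genes, which encode bromodomain readers of acetyl-lysine, were called lower in HDAC1cKO-HDAC2HET cells. Brd3 fell by 0.45 (SE 0.041) and Brd2 by 0.36 (SE 0.030). Of 5 tested genes of acetyl-CoA supply, the substrate of all acetyltransferases, 4 were called higher and none lower (median 0.30). Acly, the other gene of the 6 listed, had a value in 3 of 4 WT samples and was not tested. It was 107 ± 3.96 FPKM in WT (SD, n = 3) and 105 ± 1.82 FPKM in HDAC1cKO-HDAC2HET cells (SD, n = 4), with overlap. Acss2, which makes acetyl-CoA from acetate, was 5.01 ± 0.575 FPKM in WT and 8.19 ± 0.449 FPKM in HDAC1cKO-HDAC2HET cells and rose by 0.70 (SE 0.087, adjusted p = 0.000307), and Dlat, a pyruvate dehydrogenase subunit, rose by 0.47 (SE 0.047). In the second experiment the median of this list was 0.14 and no gene of it was called.

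**Figure D5:**
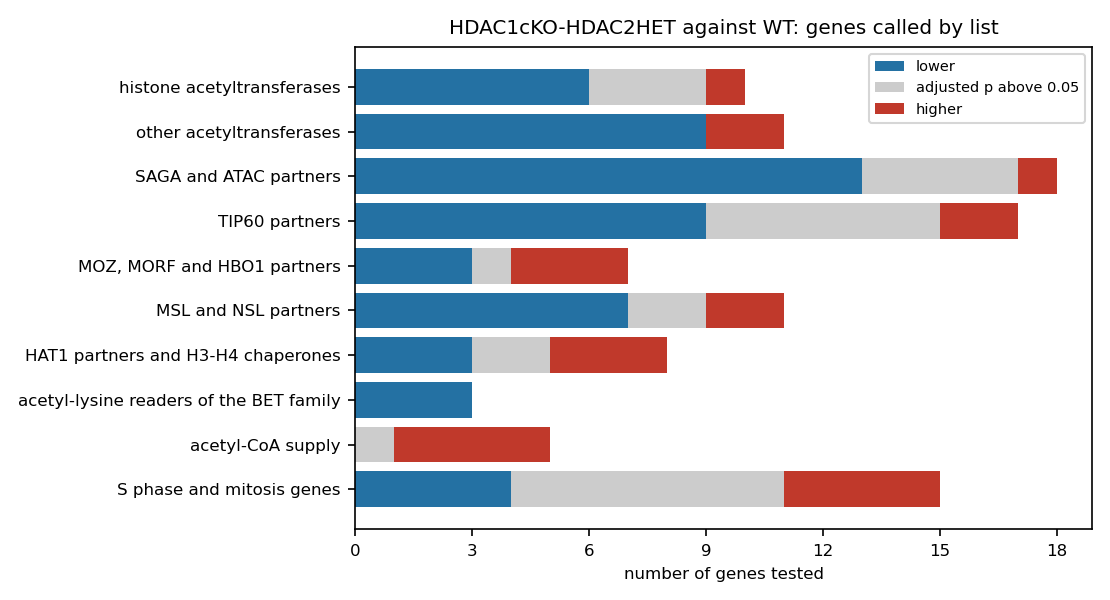
Number of genes called lower (blue), not called (grey), and called higher (red) in HDAC1cKO-HDAC2HET against WT cells at an adjusted p of at most 0.05, for the acetyltransferases and 9 lists of related genes. Of the acetyltransferases 6 are lower and 1 is higher, all 3 BET genes are lower, and 4 of 5 tested acetyl-CoA supply genes are higher.

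The genes whose pattern was most like that of Crebbp were named by the Pearson correlation of log2(FPKM + 0.1) over the 14 samples, each taken against the WT mean of its experiment, among 10275 protein-coding genes. They were Arid5b (r = 0.988), Rictor (r = 0.987), and Snx13 (r = 0.987). The points share the genotype groups and the libraries that stood apart, so this is a description of likeness. Their longest coding transcripts have 7581, 9312, and 6231 bases. Arid5b changed by -1.31 in HDAC1cKO-HDAC2HET and -0.68 in HDAC1cKO cells, Rictor by -0.62 and -0.39, and Snx13 by -0.63 and -0.45.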

How the data were processed

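RNA-Seq was deposited as 14 tables of FPKM values, 1 per sample, which the authors made with TopHat and Cufflinks on mm10. The submitters' processing notes also name STAR 2.5.2b, Subread 1.5.1, edgeR, and R 3.4, whose part in these tables is not given in the sources used here. Cufflinks assembled loci in each library, and many hold no gene name. A gene took its named value or, without one, that of the unnamed locus sharing at least 0.8 of the joint span with its GENCODE M21 locus. Of 140 member values 24 were named, 115 were matched, and 1 was missing. Fragment numbers were estimated from the steps between low FPKM values.

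Genes with a mean of at least 0.1 FPKM were tested on log2(FPKM + 0.1), which understates changes of low genes, with limma 3.58.1 in R 4.3.3 (moderated test with intensity trend), mutant against WT within each experiment and the difference of both changes over all samples. A Benjamini-Hochberg adjusted p of at most 0.05 made a call. Ratios were compared by 2-sided exact permutation tests. The study tested single genes by their FPKM in the first experiment and names no test for its calls over all genes. From each list the 2 called genes with the largest change and no overlap between groups were named, and for Crebbp the 3 genes most like it. Members and lists were chosen with earlier results of these data known. The fit was run on simulated data with independent normal noise, which held no length trend, sex difference, or library that stood apart. Pseudocount, filter, scaling, weights, blocking, sex, length, and left-out samples were varied. Python 3.11.15, pandas 2.3.3, numpy 2.4.6, scipy 1.17.1, and matplotlib 3.10.9 were used.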

Additional observations from a re-analysis of the deposited data

Results flagged for a closer look

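The change of Kat2b mRNA differed between the experiments by -0.50 on the log2 scale, with -0.51 in HDAC1cKO-HDAC2HET and -0.01 in HDAC1cKO cells, each against its own WT (limma contrast over 14 samples, adjusted p = 0.0225). All 4 HDAC1cKO-HDAC2HET samples were below all WT samples of their experiment, while the groups of the other experiment overlapped. It did not pass without HDAC1cKO replicate 1 (-0.45, adjusted p = 0.0566) or with a replicate block (adjusted p = 0.0671). Of 20 groups of 4 samples examined for a single distant sample, none was found, where chance gives about 1 in 20.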

How the results depend on the processing

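The 6 members called lower in HDAC1cKO-HDAC2HET cells numbered 5 to 7 over all alternatives, and 6 to 7 with 1 sample left out. The count of 5 arose with both experiments fitted together, where Kat8 was not tested and the other members kept their call. The members called higher numbered 2 in place of 1, with Hat1 added, at a mean FPKM of at least 1, with median-of-ratios scaling, with array weights, over protein-coding genes only, and with the length trend removed (chosen after seeing the data), and 1 to 2 with 1 sample left out. In HDAC1cKO cells 1 member (Crebbp) was called lower when both experiments were fitted together. The members with an unlike change numbered 2 with array weights (Crebbp added, -0.53), 0 with the replicate block, and 0 to 1 with 1 sample left out. Signs turned for uncalled values: in HDAC1cKO cells Kat2a was -0.0032 with a sex covariate, and Kat2b 0.0017 with median-of-ratios scaling, 0.10 with the sex covariate, and 0.052 with the length trend removed. The difference of Ep300 was -0.15 with array weights and -0.025 with the sex covariate. With 1 sample left out, Kat2b ran from -0.064 to 0.069 and Kat5 from -0.015 to 0.14 in HDAC1cKO cells, the differences of Ep300 from -0.16 to 0.12, of Kat2a from -0.010 to 0.097, and of Hat1 from -0.089 to 0.011, and the log2 Kat6a to Kat6b ratio from -0.0079 to 0.033 and, in HDAC1cKO cells, from -0.15 to 0.12. The log2 Ep300 to Crebbp and Kat2a to Kat2b ratios of the first experiment stayed at 0.52 to 0.59 and 0.63 to 0.76. Their adjusted p was then 0.0857 whichever sample was left out (2-sided exact permutation test). With 3 against 4 samples this test cannot reach an adjusted p of 0.05, so these fits could not pass whatever the values. The cause of these shifts was not tested. Samples of the same number did not deviate together (r from -0.01 to 0.04), so the numbers were not used as a pairing. Over all genes, 13 were called in HDAC1cKO cells (4 higher, 9 lower), against 5 with the replicate block, 8 without the intensity trend, 19 with median-of-ratios scaling (8 higher, 11 lower), 15 with the length trend removed (8 higher, 7 lower), 27 at a mean FPKM of at least 1, 28 over protein-coding genes, 31 with array weights, 76 with the sex covariate, 1369 with both experiments fitted together, and 11 to 58 with 1 sample left out. The 1936 genes with an unlike change became 1216 with the sex covariate and 1116 with an own spread for each experiment. No counts were used, so depth limits low genes in a way these values do not show.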
